A study of Mus musculus with 24 samples.

Results

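The insulin-like growth factor (IGF) system was followed in stromal vascular cells of mouse white fat, cultured to differentiate into adipocytes. It was read through the ligands Igf1 and Igf2, the receptors Igf1r and Igf2r and the binding proteins Igfbp2 to Igfbp7. These 10 genes were taken by symbol from the table of raw counts, which held 53465 genes, and all 10 were found. Of them, 9 were among the 14785 genes that passed the filter on low counts and were tested, and Igf2 was not.

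Poly(A) RNA had been sequenced from 24 samples in 8 groups of 3. The groups cross the depot, epididymal (eWAT) or inguinal (iWAT) fat, with the genotype and the siRNA. Control (Cont) mice were of the strain Senp2flox/flox. Knockout (aKO) mice were Senp2flox/flox ; Adipoq Cre, so both genotypes carry the floxed Senp2 alleles and only aKO mice carry Cre, driven by the promoter of adiponectin, a gene of fat cells. Cells received siC/EBPb, an siRNA against the transcription factor C/EBPbeta, or siNS, a name that the labels do not explain. Stromal vascular cells were induced for 2 days with dexamethasone, isobutylmethylxanthine and insulin and then kept with insulin and serum for 5 days, so every group was cultured with insulin. The labels give no age. The origin of the 3 samples of a group (wells, cultures or mice) is not stated, and a p-value therefore speaks of the spread between samples that may be technical replicates.

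IGF1 and IGF2 are secreted hormones related to insulin. IGF1 signals through the tyrosine kinase IGF1R, which, like the insulin receptor, acts through IRS proteins, PI3 kinase and AKT. IGF2R, also known as the cation-independent mannose 6-phosphate receptor, takes up IGF2 for breakdown in lysosomes and sorts lysosomal enzymes. IGF binding proteins hold the ligands outside the cell and can prolong their life, keep them from the receptor or, after cleavage by proteases, release them. In white fat, preadipocytes respond to IGF1 as they begin to differentiate, and fat and stromal cells make IGF1 themselves.

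The ligand Igf1 and 5 of the binding proteins changed in at least 4 of the 8 genotype and siRNA comparisons. Each receptor changed in 1 of them, and its group means over the 24 libraries spanned 1.31-fold. Igfbp3 was lower in aKO than in Cont cells in both depots and lower again with siC/EBPb, so that the group means spanned 10.6-fold. Igf1 fell in aKO cells, and further in aKO cells that received siC/EBPb. Igfbp4 did not pass the test between aKO and Cont with siNS, but fell with siC/EBPb in each depot and genotype. Igfbp5 and Igfbp2 rose with siC/EBPb in each depot and genotype. In the text, rose, fell and changed refer to an adjusted p under 0.05 in edgeR's quasi-likelihood test with Benjamini-Hochberg adjustment over all tested genes (edgeR QL), and fold changes are on the log2 scale ± SE with n = 3 libraries per group.

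**Figure D1:**
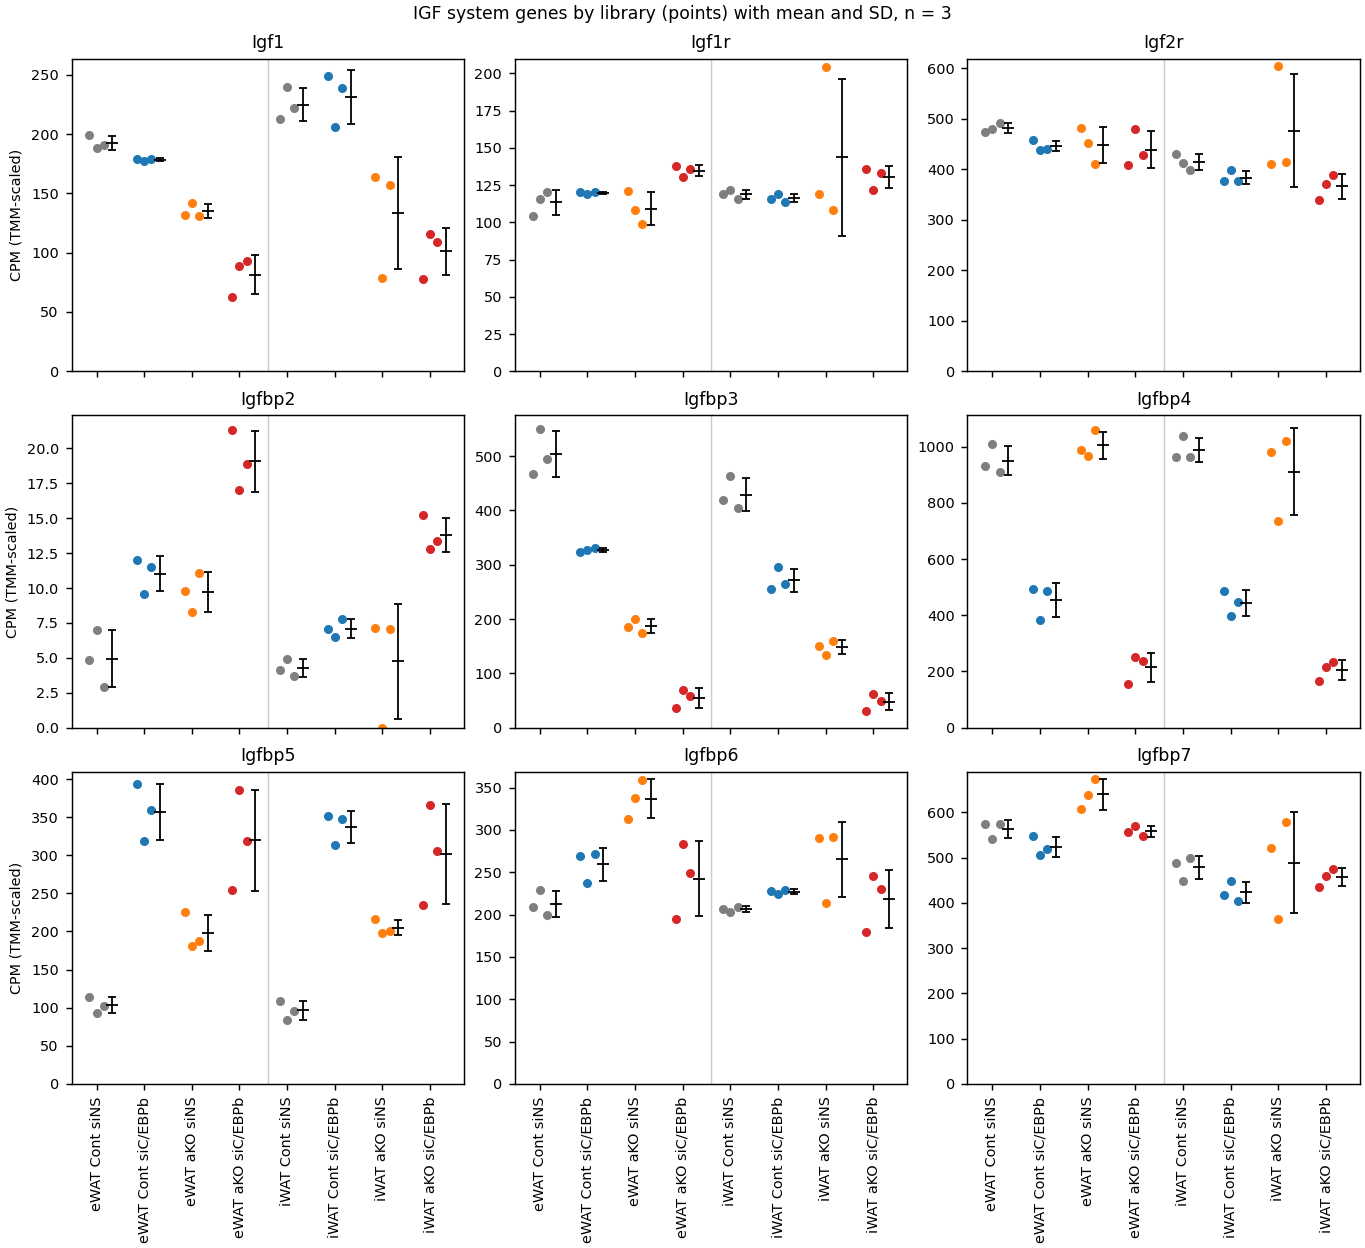
Counts scaled by library size (CPM, vertical axes starting at 0) of IGF system genes in each of the 24 libraries (points), with the mean and SD of each group of 3, for 4 eWAT groups and then 4 iWAT groups. Igfbp3 steps down from 549 CPM in the highest eWAT Cont siNS library to 30.7 in the lowest iWAT aKO siC/EBPb library.

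Gene counts per library ranged from 8435494 to 15388744 in 23 libraries. The other one, iWAT aKO siNS replicate 2 (the shallow library), held 603585, with 93.3% of its listed reads not aligned against 16.8% to 27.6% elsewhere. It stood apart in IGF genes too and was kept, and values without it are given where they change a call of an IGF gene. Other iWAT aKO siNS results include it unless stated, as do those of the gene lists. Cebpb, the target of the siRNA, had a mean ± SD (n = 3) of 168 ± 12.5 CPM with siNS and 50.4 ± 7.56 with siC/EBPb in Cont cells of eWAT, and of 151 ± 8.67 and 27.4 ± 6.49 in aKO cells. In iWAT it was at 125 ± 18.3 and 36.0 ± 2.02 in Cont, and at 115 ± 11.9 and 18.5 ± 5.43 in aKO. Senp2 group means lay between 47.6 and 54.5 CPM. In eWAT they were 47.6 in aKO and 54.5 in Cont with siNS, and 53.2 and 49.9 with siC/EBPb. In iWAT they were 51.5 (shallow library included) and 51.0 with siNS, and 53.2 and 50.8 with siC/EBPb. These counts do not by themselves show a loss of Senp2 in aKO cells, and the genotype is that of the labels. Gene counts can include reads outside the floxed part and from cells without Cre, and the part of either was not tested.

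The label of the cells was set against marker lists. All 15 adipocyte markers were tested, and their summed level had group medians from 1568 to 4519 CPM. Single libraries ran from 893 to 4577 CPM. The 15 markers of fibroblasts and adipocyte progenitors, genes of the cells from which these cultures started, summed to 42232 to 53806 CPM in 23 libraries and to 89082 in the shallow library. Adipocyte and stromal transcripts were thus both present in every library, and the stromal sum was the larger in each. The lists hold different genes, so the sums do not give shares of cells. The IGF levels are those of the whole culture and not of adipocytes alone.

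Leukocyte markers moved with genotype and siRNA. Of 12 tested leukocyte markers (14 listed, Cd3e at 0 in the 24 libraries), 12 fell with siC/EBPb in each depot and genotype, and 9, 12, 7 and 11 fell in aKO (eWAT siNS, eWAT siC/EBPb, iWAT siNS, iWAT siC/EBPb). Their summed level in eWAT ran from 2043 to 2857 CPM in Cont siNS, 1600.1 to 1689 in aKO siNS, 393 to 464 in Cont siC/EBPb and 95.1 to 203 in aKO siC/EBPb. In iWAT it ran from 1967 to 2731, 872 to 1622, 376 to 407 and 78.8 to 178 CPM. The 872 is that of the shallow library, and the other aKO siNS values were 1622 and 1499. The median leukocyte sum was lower in aKO or with siC/EBPb in every genotype and siRNA comparison. It was thus lower where Igf1, Igfbp3 and Igfbp4 fell (values follow) and also where Igfbp2 and Igfbp5 rose. Igfbp6 rose in aKO with siNS, where the sum was lower too. Igf1 did not pass with the siRNA in Cont cells, where the median of the sum went from 2702 to 457 CPM in eWAT and from 2487 to 407 in iWAT, and Igfbp4 did not pass between genotypes with siNS, where it went from 2702 to 1682 and from 2487 to 1499. Fewer cells of a type and less RNA per cell cannot be told apart in these samples, and the part of these cells in the IGF results was not tested.

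Per kilobase of exon, which allows levels of different genes to be compared, Igfbp7 was the most abundant IGF gene, with a mean of 427 CPM per kilobase over the 24 libraries, above 99.6% of tested genes. Igfbp6 (221), Igfbp4 (146) and Igfbp3 (78.6) followed, then Igf2r (46.4), Igfbp5 (39.9), Igf1 (16.1), Igf1r (7.34) and Igfbp2 (5.05) on the same scale. In eWAT Cont siNS the order was Igfbp7 (465 ± 15.9 CPM per kilobase, n = 3, ± SD), Igfbp4 (215 ± 12.0), Igfbp6 (191 ± 13.4) and Igfbp3 (161 ± 13.4). Igfbp4 and Igfbp6 differed by less than the sum of their SDs there, as did Igf1 (19.4 ± 0.570) and Igfbp5 (17.2 ± 1.76). The order was another in eWAT aKO siC/EBPb, where Igfbp7 (461 ± 9.52) and Igfbp6 (218 ± 39.8) were followed by Igfbp5 (53.2 ± 11), Igfbp4 (48.4 ± 11.5) and Igf2r (47.1 ± 3.91), levels that differed by less than their SDs, and Igfbp3 stood at 17.5 ± 5.70. Igfbp7 led in both groups.

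Binding proteins are described with their promoters, because C/EBPbeta, the target of the siRNA, is a DNA-binding factor and their transcripts changed most. The sequences are the 250 bases before the RefSeq start of each gene (GRCm38.p6), 5′ to 3′ on the gene's strand, for a pair that fell (Igfbp3 and Igfbp4) and a pair that rose (Igfbp5 and Igfbp2) with siC/EBPb. Capitals mark matches to TTNNGNAA, a loose core of C/EBP motifs, or to the core promoter box TATAAA, searched on both strands. A stricter core, TTGCNNAA, was searched too, and a run of letters can match both cores.
Igfbp3 (chr11:7213924-7214173, minus strand): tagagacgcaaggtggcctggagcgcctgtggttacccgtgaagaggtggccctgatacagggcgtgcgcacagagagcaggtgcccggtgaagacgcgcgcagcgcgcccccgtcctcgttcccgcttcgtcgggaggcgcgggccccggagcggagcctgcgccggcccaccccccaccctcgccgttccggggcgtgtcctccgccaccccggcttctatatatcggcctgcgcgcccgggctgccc
Igfbp4 (chr11:99040994-99041243, plus strand): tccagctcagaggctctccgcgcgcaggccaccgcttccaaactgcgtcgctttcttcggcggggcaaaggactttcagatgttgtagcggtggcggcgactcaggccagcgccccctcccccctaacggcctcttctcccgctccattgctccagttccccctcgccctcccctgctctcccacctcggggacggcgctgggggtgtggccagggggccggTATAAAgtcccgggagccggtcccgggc
Igfbp5 (chr1:72874866-72875115, minus strand): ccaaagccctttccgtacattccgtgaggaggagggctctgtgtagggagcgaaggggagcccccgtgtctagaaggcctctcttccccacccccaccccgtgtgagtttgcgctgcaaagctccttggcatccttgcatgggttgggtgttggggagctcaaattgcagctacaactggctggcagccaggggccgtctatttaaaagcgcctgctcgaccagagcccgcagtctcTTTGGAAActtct
Igfbp2 (chr1:72824230-72824479, plus strand): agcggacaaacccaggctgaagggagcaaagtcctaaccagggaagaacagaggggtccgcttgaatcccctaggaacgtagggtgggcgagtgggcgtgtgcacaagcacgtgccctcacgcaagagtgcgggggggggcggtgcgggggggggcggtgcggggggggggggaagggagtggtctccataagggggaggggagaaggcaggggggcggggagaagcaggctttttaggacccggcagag
The Igfbp4 window held TATAAA from 28 bases before the start, and the Igfbp5 window held TTTGGAAA, a match to the loose core, from 13 bases before it. The Igfbp3 window and this Igfbp2 window held no match to any of these searches, although a second RefSeq start of Igfbp2 had a loose core 149 bases upstream. Of 32851 windows of 300 bases in the table (250 before and 50 after a start), 40.7% held the loose core, 10.8% the stricter core and 13.6% TATAAA. All 10 IGF genes had at least one window, and the windows of Igf1, Igf2r and Igfbp7 held no match. A match is a run of letters and not a site, and its absence says only that the letters are not in this window.

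Among the ligands, Igf1 (chromosome 10, 87858265 to 87937042, plus strand, GRCm38) encodes the circulating and local growth factor. In eWAT Cont it was at 199, 188 and 191 CPM with siNS and at 179, 177 and 179.5 CPM with siC/EBPb (replicates 1 to 3). In eWAT aKO it was at 132, 142 and 131 CPM with siNS and at 62.9, 88.6 and 93.3 CPM with siC/EBPb. The iWAT values were 213, 240.0 and 222 CPM in Cont siNS, 249, 206 and 239 in Cont siC/EBPb, 164, 79.1 and 157 in aKO siNS and 78.2, 116 and 109 in aKO siC/EBPb, the value of 79.1 being that of the shallow library. Every aKO library lay below every Cont library of its depot and siRNA.

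Igf1 fell in aKO against Cont by 0.51 ± 0.14 in eWAT (edgeR QL adjusted p = 0.0142) and by 0.59 ± 0.16 in iWAT (edgeR QL adjusted p = 0.0115) with siNS. With siC/EBPb it fell by 1.13 ± 0.15 (edgeR QL adjusted p = 1.69e-05) and by 1.19 ± 0.15 (edgeR QL adjusted p = 9.26e-06), a 2.19-fold and a 2.28-fold lower level in aKO. The difference between siC/EBPb and siNS did not pass in Cont cells of either depot, at -0.11 ± 0.14 in eWAT (edgeR QL adjusted p = 0.646) and 0.04 ± 0.14 in iWAT (edgeR QL adjusted p = 0.887), with 95% intervals from -0.39 to 0.17 and from -0.24 to 0.32. In aKO cells Igf1 fell with siC/EBPb by 0.73 ± 0.15 (edgeR QL adjusted p = 4.82e-04) and 0.56 ± 0.16 (edgeR QL adjusted p = 0.00780). Some of these calls rested on single libraries. The eWAT siNS genotype call was lost without eWAT Cont siNS replicate 1 (edgeR QL adjusted p = 0.0517) or eWAT aKO siNS replicate 3 (edgeR QL adjusted p = 0.0572). The iWAT siNS genotype difference was -0.49 (edgeR QL adjusted p = 0.0257) when the shallow library was left out. The call in iWAT aKO cells was lost without iWAT aKO siNS replicate 1 (edgeR QL adjusted p = 0.0781) or replicate 3 (edgeR QL adjusted p = 0.0583), and when the shallow library was left out the change was -0.67 (edgeR QL adjusted p = 0.00150).

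Igf2 (chromosome 7, 142650766 to 142666816, minus strand), the paternally expressed fetal growth factor, had very few counts. It had 28 counts in the 24 libraries together, with 0 in 8 libraries and at most 5 in any one, and no comparison could be made with so few counts. Of its 5723 exon bases, 3596 are shared with Gm49394 on the same strand, so its count is uncertain. Reads over shared bases may be set aside as ambiguous and counted for neither gene. The count may thus be too low, and Igf2 cannot be called absent. Gm49394 itself had 1 count.

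The receptors varied little. Igf1r (chromosome 7, 67952827 to 68233668, plus strand), the signalling receptor, ranged from 98.8 to 138 CPM in 23 libraries and was 204 CPM in the shallow one. It rose by 0.30 ± 0.10 (edgeR QL adjusted p = 0.0182) with siC/EBPb in eWAT aKO cells, from 121, 108 and 98.8 CPM to 138, 130.4 and 136 CPM, and that call was lost without eWAT aKO siNS replicate 2 (edgeR QL adjusted p = 0.0704) or replicate 3 (edgeR QL adjusted p = 0.126), without eWAT aKO siC/EBPb replicate 1 (edgeR QL adjusted p = 0.0637) or replicate 3 (edgeR QL adjusted p = 0.0512), and in DESeq2 (adjusted p = 0.0580). In iWAT aKO cells the siRNA difference was 0.08 ± 0.11 (edgeR QL adjusted p = 0.637) and 0.20 (edgeR QL adjusted p = 0.0288) if the shallow library is left out. The 4 genotype differences of Igf1r lay between -0.05 and 0.17 on the log2 scale and none passed the test.

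Igf2r (chromosome 17, 12682406 to 12769664, minus strand) ranged from 339.5 to 492 CPM in 23 libraries and was 605 CPM in the shallow one. Its genotype differences lay between -0.11 and 0.15, none passing. It fell by 0.33 ± 0.10 (edgeR QL adjusted p = 0.0179) with siC/EBPb in iWAT aKO cells, from 411, 605 and 414 CPM to 339.5, 371 and 389 CPM. The fall was 0.18 (edgeR QL adjusted p = 0.0361) when the shallow library was left out, and the call was lost without iWAT aKO siC/EBPb replicate 1 (edgeR QL adjusted p = 0.0945) or with no filter on low counts (edgeR QL adjusted p = 0.0890). Igf2r stayed above Igf1r per kilobase in every group.

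Igfbp3 (chromosome 11, 7206086 to 7213923, minus strand) encodes the main IGF carrier of blood serum. In eWAT it was at 467, 549 and 495 CPM in Cont siNS, 323, 327 and 330.1 in Cont siC/EBPb, 185, 200.4 and 175 in aKO siNS and 35.2, 70.1 and 58.9 in aKO siC/EBPb. In iWAT the values were 419.8, 463 and 405 CPM, 255, 295 and 264 CPM, 151, 134 and 159.9 CPM, and 30.7, 62.0 and 49.2 CPM in the same order of groups. The 4 groups of a depot did not overlap, and replicate 1 was the lowest of each aKO siC/EBPb group. Igf1, Igfbp4, Igfbp5 and Igfbp6 were lowest in replicate 1 of these groups too, and so were the summed CPM of adipocyte markers, at 893 against 1651 and 1621 in eWAT and 990.5 against 1811 and 1771 in iWAT, and of leukocyte markers, at 95.1 against 153 and 203 and at 78.8 against 142 and 178.

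With siNS, Igfbp3 was 2.7-fold lower in aKO than in Cont in eWAT (-1.43 ± 0.19, edgeR QL adjusted p = 1.44e-05) and 2.82-fold lower in iWAT (-1.5 ± 0.20, edgeR QL adjusted p = 3.00e-05). With siC/EBPb the genotype difference was 5.98-fold in eWAT (-2.58 ± 0.20, edgeR QL adjusted p = 3.23e-08) and 5.73-fold in iWAT (-2.52 ± 0.20, edgeR QL adjusted p = 5.75e-08). The siRNA lowered Igfbp3 1.54-fold in eWAT Cont (-0.62 ± 0.18, edgeR QL adjusted p = 0.0153) and 1.58-fold in iWAT Cont (-0.66 ± 0.19, edgeR QL adjusted p = 0.0121), against 3.42-fold in eWAT aKO (-1.77 ± 0.20, edgeR QL adjusted p = 4.29e-07) and 3.21-fold in iWAT aKO (-1.68 ± 0.21, edgeR QL adjusted p = 2.52e-06). The eWAT Cont call was lost without eWAT Cont siNS replicate 2 (-0.57, edgeR QL adjusted p = 0.0605). With replicate 1 of the aKO siC/EBPb group left out, the genotype difference with siC/EBPb was -2.34 in eWAT (edgeR QL adjusted p = 5.14e-09) and -2.28 in iWAT (edgeR QL adjusted p = 2.64e-08), and the siRNA difference in aKO cells was -1.55 (edgeR QL adjusted p = 1.39e-07) and -1.45 (edgeR QL adjusted p = 2.21e-06).

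Igfbp4 (chromosome 11, 99041244 to 99054392, plus strand) encodes a binding protein that blocks IGF action until the protease PAPP-A cleaves it. With siNS, its eWAT levels were 932, 1009.8 and 909 CPM in Cont and 989, 967 and 1059.7 CPM in aKO. With siC/EBPb they were 492, 383 and 487 CPM in Cont and 156, 250.2 and 236 CPM in aKO. The iWAT levels were 965, 1039 and 962 CPM in Cont siNS, 980.5, 734 and 1019 in aKO siNS (734 in the shallow library), 487, 396 and 447 in Cont siC/EBPb and 165, 216 and 235 in aKO siC/EBPb. The siNS groups overlapped between genotypes, and with siC/EBPb every aKO library lay below every Cont library.

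With siC/EBPb, Igfbp4 fell 2.09-fold in eWAT Cont (-1.07 ± 0.15, edgeR QL adjusted p = 3.92e-06) and 2.23-fold in iWAT Cont (-1.16 ± 0.15, edgeR QL adjusted p = 1.49e-06). In aKO cells the fall was 4.70-fold in eWAT (-2.23 ± 0.15, edgeR QL adjusted p = 2.07e-11) and 4.50-fold in iWAT (-2.17 ± 0.16, edgeR QL adjusted p = 6.21e-11). Between genotypes with siNS the differences were 0.08 ± 0.15 in eWAT (edgeR QL adjusted p = 0.765) and -0.10 ± 0.15 in iWAT (edgeR QL adjusted p = 0.733). With siC/EBPb, aKO was lower than Cont by 1.09 ± 0.15 (-1.09, edgeR QL adjusted p = 1.45e-05) and by 1.11 ± 0.15 (-1.11, edgeR QL adjusted p = 1.25e-05).

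Igfbp5 and Igfbp2 lie next to each other on chromosome 1, 5457 bases apart and pointing towards each other (Igfbp2 at 72824503 to 72852474 on the plus strand, Igfbp5 at 72857932 to 72874884 on the minus strand). Igfbp5 encodes a binding protein that also attaches to the extracellular matrix. In eWAT it was at 114, 93.4 and 102 CPM in Cont siNS, 393, 319 and 359 in Cont siC/EBPb, 225, 181 and 188 in aKO siNS and 254, 386 and 319 in aKO siC/EBPb. In iWAT it was at 109, 84.5 and 95.6 CPM, 351, 313 and 347 CPM, 216, 198 and 200.2 CPM, and 235, 366 and 305 CPM in the same order. Cont siNS libraries were the lowest in both depots, and the siC/EBPb libraries of the genotypes overlapped.

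Igfbp5 rose with siC/EBPb 3.45-fold in eWAT Cont (1.79 ± 0.15, edgeR QL adjusted p = 4.06e-09) and 3.49-fold in iWAT Cont (1.80 ± 0.15, edgeR QL adjusted p = 5.33e-09). It rose less in aKO cells, by 0.69 ± 0.15 in eWAT (edgeR QL adjusted p = 5.87e-04) and 0.55 ± 0.15 in iWAT (edgeR QL adjusted p = 0.00822). The iWAT aKO call was lost without iWAT aKO siC/EBPb replicate 2 (0.39, edgeR QL adjusted p = 0.0575), and it was 0.53 (edgeR QL adjusted p = 0.0356) when the shallow library was left out. With siNS, aKO was higher than Cont by 0.94 ± 0.15 (edgeR QL adjusted p = 6.86e-05) and 1.10 ± 0.16 (edgeR QL adjusted p = 3.30e-05), and with siC/EBPb the genotype difference was -0.16 ± 0.14 in each depot (edgeR QL adjusted p = 0.599 and 0.632), with 95% intervals from -0.44 to 0.12 and from -0.44 to 0.13.

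Igfbp2, a binding protein of preadipocytes and liver, was the least abundant of those tested. In eWAT it was at 4.86, 6.99 and 2.92 CPM in Cont siNS, 12.0, 9.59 and 11.5 in Cont siC/EBPb, 9.78, 8.26 and 11.1 in aKO siNS and 21.3, 17.0 and 18.9 in aKO siC/EBPb. In iWAT it was at 4.11, 4.95 and 3.73 CPM, 7.04, 6.46 and 7.79 CPM, 7.14, 0 and 7.07 CPM, and 15.2, 12.8 and 13.4 CPM in the same order. The 0 is that of the shallow library, and each of the other 23 had at least 31 counts. The aKO siC/EBPb libraries were the highest of each depot.

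Igfbp2 rose with siC/EBPb by 1.15 ± 0.20 in eWAT Cont (edgeR QL adjusted p = 5.82e-05), 0.97 ± 0.17 in eWAT aKO (edgeR QL adjusted p = 4.53e-05), 0.73 ± 0.24 in iWAT Cont (edgeR QL adjusted p = 0.0270) and 1.00 ± 0.21 in iWAT aKO (edgeR QL adjusted p = 6.21e-04). The iWAT Cont call was lost without iWAT Cont siNS replicate 1 (edgeR QL adjusted p = 0.0983) or replicate 3 (edgeR QL adjusted p = 0.0748) and without iWAT Cont siC/EBPb replicate 1 (edgeR QL adjusted p = 0.0574) or replicate 3 (edgeR QL adjusted p = 0.108). In aKO against Cont it rose by 0.98 ± 0.20 (edgeR QL adjusted p = 8.56e-04) and 0.79 ± 0.16 (edgeR QL adjusted p = 0.00155) in eWAT with siNS and siC/EBPb, and by 0.96 ± 0.19 (edgeR QL adjusted p = 0.00108) in iWAT with siC/EBPb. In iWAT with siNS the difference was 0.69 ± 0.26 (edgeR QL adjusted p = 0.0777), and 0.72 (edgeR QL adjusted p = 0.0337) when the shallow library was left out.

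Igfbp6 (chromosome 15, 102144362 to 102149511, plus strand) encodes a binding protein that prefers IGF2. In eWAT it was at 209, 229 and 199.6 CPM in Cont siNS, 269, 237 and 272 in Cont siC/EBPb, 313, 338 and 359 in aKO siNS and 195, 283 and 249 in aKO siC/EBPb. The iWAT values were 207, 203 and 209.5 CPM, 228, 224 and 229 CPM, 290.0, 214 and 292 CPM, and 179.9, 246 and 229.8 CPM in the same order, with 214 in the shallow library. The eWAT aKO siNS libraries were the highest of that depot.

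Igfbp6 rose in aKO against Cont with siNS by 0.66 ± 0.11 in eWAT (edgeR QL adjusted p = 1.01e-04) and 0.42 ± 0.12 in iWAT (edgeR QL adjusted p = 0.0165). The siRNA lowered it in aKO cells by 0.48 ± 0.11 in eWAT (-0.48, edgeR QL adjusted p = 0.00155) and 0.34 ± 0.12 in iWAT (-0.34, edgeR QL adjusted p = 0.0324). In Cont cells the difference was 0.29 ± 0.11 in eWAT (edgeR QL adjusted p = 0.0635) and 0.14 ± 0.12 in iWAT (edgeR QL adjusted p = 0.452). The iWAT genotype call was lost without any one of iWAT Cont siNS replicates 1 and 2 (edgeR QL adjusted p = 0.0582 and 0.0612) and iWAT aKO siNS replicates 1 and 3 (edgeR QL adjusted p = 0.105 and 0.125). The iWAT aKO siRNA call was lost without iWAT aKO siNS replicate 1 or 3 (edgeR QL adjusted p = 0.153 and 0.166) or iWAT aKO siC/EBPb replicate 1 (edgeR QL adjusted p = 0.223). Leaving out the shallow library gave 0.49 for the iWAT genotype difference (edgeR QL adjusted p = 0.0104) and -0.42 for the siRNA in iWAT aKO (edgeR QL adjusted p = 0.0139). The summed adipocyte markers were also higher in aKO with siNS, with medians of 3639 against 2554 CPM in eWAT and 4519 against 3198 in iWAT, and lower with siC/EBPb in aKO cells, at 1621 and 1771. In Cont cells that sum was lower with siC/EBPb as well, at 1568 and 1888 CPM, where the Igfbp6 differences were positive and did not pass. The part of these markers in the result was not tested.

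Igfbp7 (chromosome 5, 77349240 to 77408041, minus strand), which binds IGFs weakly and is secreted by stromal and vascular cells, was the steadiest of the binding proteins, at 403 to 674 CPM in 23 libraries and 364 in the shallow one. It shares 85 exon bases with Polr2b on the opposite strand, and whether counting used strand is not stated. Its genotype differences were 0.19 ± 0.10 in eWAT (edgeR QL adjusted p = 0.211) and 0.07 ± 0.10 in iWAT (edgeR QL adjusted p = 0.700) with siNS. It passed the test in none of the 8 genotype and siRNA comparisons over 24 libraries, and in 5 of the 8 without the shallow library. Those were eWAT aKO against Cont with siNS (0.19, edgeR QL adjusted p = 0.0137), iWAT aKO against Cont with siNS (0.20, edgeR QL adjusted p = 0.0290), and the siRNA in eWAT aKO (-0.22, edgeR QL adjusted p = 0.00286), iWAT Cont (-0.18, edgeR QL adjusted p = 0.0161) and iWAT aKO (-0.28, edgeR QL adjusted p = 8.46e-04). The share of all genes called without the shallow library was 25.8%, 18.4%, 40.7%, 29.1% and 34.7% in these comparisons.

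**Figure D2:**
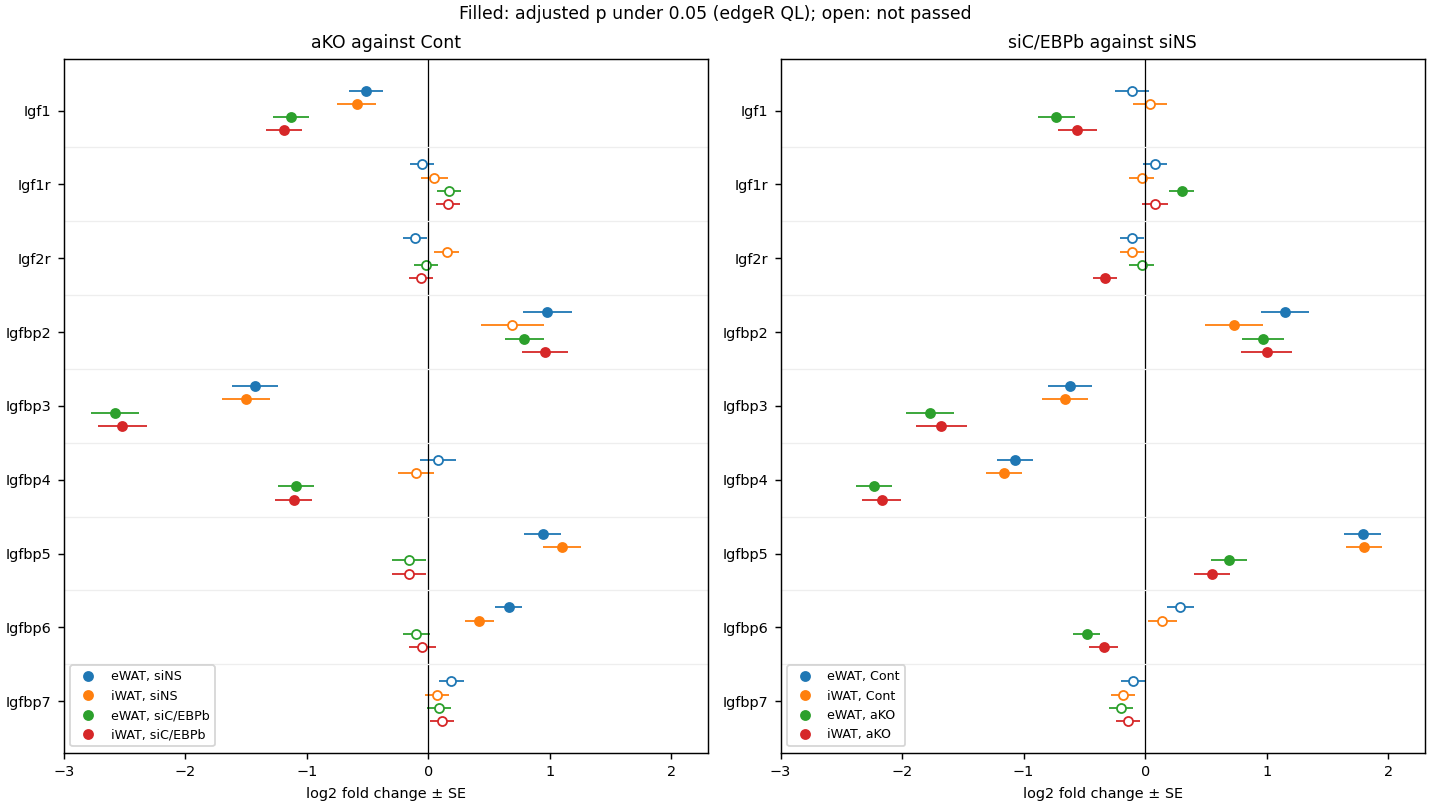
Log2 fold change ± SE (horizontal axis) of the 9 tested IGF genes in the genotype comparisons (aKO against Cont) and the siRNA comparisons (siC/EBPb against siNS) of each depot, with n = 3 libraries per group. Filled points passed an edgeR QL adjusted p of 0.05 and open points did not; Igfbp3 lies left of 0 in every comparison, from -0.62 to -2.58, and Igfbp2 lies right of 0.

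Of the 9 tested genes, 5 changed between aKO and Cont in eWAT with siNS (3 higher, 2 lower), where 20.4% of all tested genes were called (9.50% higher, 10.9% lower). In iWAT with siNS 4 changed (2 higher, 2 lower), beside 15.2% of all genes (7.32% higher, 7.85% lower). With siC/EBPb, 4 changed in eWAT (1 higher, 3 lower), beside 10.8% (3.90% and 6.87%), and 4 in iWAT (1 higher, 3 lower), beside 10.0% (3.52% and 6.51%). The siRNA changed 4 in eWAT Cont (2 higher, 2 lower), beside 26.8% of all genes (11.8% and 14.9%), and 4 in iWAT Cont (2 higher, 2 lower), beside 24.3% (10.3% and 14.0%). In aKO cells it changed 7 in eWAT (3 higher, 4 lower), beside 35.7% (16.6% and 19.1%), and 7 in iWAT (2 higher, 5 lower), beside 31.3% (13.6% and 17.7%). The median absolute log2 fold change of the 9 was 0.51 and 0.42 between genotypes with siNS in eWAT and iWAT, against 0.17 and 0.18 over all tested genes. It was 0.17 and 0.16 between genotypes with siC/EBPb, against 0.13 and 0.12. It was 0.69 and 0.55 for the siRNA in aKO cells, against 0.22 and 0.23, and 0.29 and 0.18 for the siRNA in Cont cells, against 0.18 and 0.19. When only the 6 libraries of a comparison were fitted, some iWAT calls that involve the shallow library were lost. Between genotypes with siNS these were Igf1 (edgeR QL adjusted p = 0.138) and Igfbp6 (edgeR QL adjusted p = 0.242), and for the siRNA in aKO cells Igf1 (edgeR QL adjusted p = 0.244), Igf2r (edgeR QL adjusted p = 0.238), Igfbp5 (edgeR QL adjusted p = 0.0874) and Igfbp6 (edgeR QL adjusted p = 0.314). Comparisons of a depot share control libraries, so their values are given side by side only. The IGF genes were chosen with earlier results of these data known, and several are highly expressed. Here and below, a count above the share of all genes is therefore a description and not a test.

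Binding protein transcripts were summed per kilobase to show their makeup. In eWAT Cont siNS the 6 genes summed to 1052 ± 20.9 CPM per kilobase (± SD, n = 3), of which the median library had 45.4% Igfbp7, 20.2% Igfbp4, 18% Igfbp6, 15.3% Igfbp3 and 1.64% Igfbp5. In eWAT aKO siC/EBPb the sum was 809 ± 71.1, with 55.7% Igfbp7, 27.6% Igfbp6, 6.55% Igfbp5, 6.45% Igfbp4 and 2.32% Igfbp3. The iWAT sums were 961 ± 6.56 in Cont siNS and 694 ± 67.5 in aKO siC/EBPb, and the share of Igfbp3 went from 13.9% to 2.16%, that of Igfbp4 from 22.7% to 6.63% and that of Igfbp5 from 1.65% to 7.0%. The order Igfbp4 above Igfbp3 above Igfbp5 in Cont siNS was thus replaced by Igfbp5 and Igfbp4 at near equal shares above Igfbp3.

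**Figure D3:**
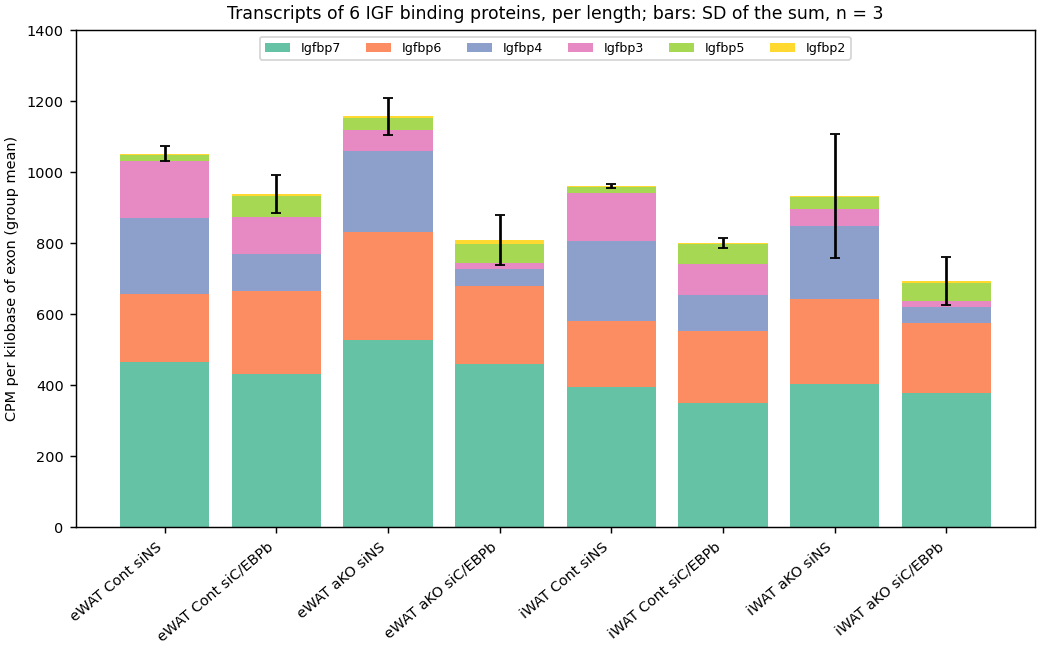
Stacked group means of the 6 Igfbp genes in CPM per kilobase of exon (vertical axis from 0) for the 8 groups, with the SD of the sum over 3 libraries as error bars. The eWAT sum is 1052 in Cont siNS and 809 in aKO siC/EBPb, with the Igfbp3 and Igfbp4 layers thinner in the latter.

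Whether transcripts changed differently with siC/EBPb in aKO and Cont cells was tested with the interaction of genotype and siRNA. It is the change with siC/EBPb in aKO minus that in Cont. In eWAT 4 of 9 genes passed, all with negative values, where 6.34% of all tested genes were called (3.33% negative). These were Igfbp4 (-1.17 ± 0.21, edgeR QL adjusted p = 0.00107), Igfbp3 (-1.15 ± 0.27, edgeR QL adjusted p = 0.0138), Igfbp5 (-1.10 ± 0.21, edgeR QL adjusted p = 0.00219) and Igfbp6 (-0.76 ± 0.16, edgeR QL adjusted p = 0.00425). In iWAT 3 of 9 passed, beside 3.51% of all genes (2.19% negative), namely Igfbp5 (-1.25 ± 0.21, edgeR QL adjusted p = 0.00121), Igfbp4 (-1.01 ± 0.21, edgeR QL adjusted p = 0.00572) and Igfbp3 (-1.02 ± 0.28, edgeR QL adjusted p = 0.0477). For Igfbp3 and Igfbp4 a negative value means a larger fall in aKO cells, for Igfbp5 a smaller rise, and for Igfbp6 a fall in aKO where the Cont value was positive. Cebpb itself was lower in aKO than in Cont cells with siC/EBPb. Its group means were 27.4 against 50.4 CPM in eWAT and 18.5 against 36.0 CPM in iWAT. The part of this difference in the interactions was not tested.

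The iWAT value of Igfbp3 lay close to the threshold, and the call was lost when any one of 11 of the 12 iWAT libraries was left out (edgeR QL adjusted p from 0.0518 to 0.135). Igf1 had interactions of -0.62 ± 0.21 in eWAT (edgeR QL adjusted p = 0.0778) and -0.60 ± 0.21 in iWAT (edgeR QL adjusted p = 0.127), and both passed without the shallow library (edgeR QL adjusted p = 0.0372 and 0.0405), where 11.2% and 6.27% of all genes were called. Igfbp6 had -0.47 in iWAT (edgeR QL adjusted p = 0.117). No gene of the 9 and none of all 14785 passed in the interaction of genotype and depot with siNS, where 0 of the 9 and 415 of all genes had an unadjusted p under 0.05 in edgeR, so 0% of genes were called, and the DESeq2 Wald test and limma voom called 0 of the 9 as well.

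Between depots, 0 of the 9 genes passed in any of the 4 groups over 24 libraries in edgeR, where 1.20% (Cont siNS), 3.35% (Cont siC/EBPb), 0.352% (aKO siNS) and 1.44% (aKO siC/EBPb) of all genes were called. At an unadjusted p under 0.05 there were 2, 4, 3 and 4 of the 9, beside 2233, 2852, 1708 and 2599 of all 14785 genes. The DESeq2 Wald test called 0, 1, 0 and 0 of them, and limma voom 2, 5, 1 and 2. Leaving out the shallow library, 2, 3, 1 and 3 of the 9 passed, all lower in iWAT, where 7.50%, 11.4%, 5.49% and 9.87% of all genes were called. Igfbp7 passed in each of the 4 groups then (-0.23, -0.30, -0.22 and -0.28, edgeR QL adjusted p = 0.0124, 9.85e-04, 0.0401 and 0.00220). Igf2r passed in Cont siNS, Cont siC/EBPb and aKO siC/EBPb (-0.21, -0.21 and -0.25, edgeR QL adjusted p = 0.0244, 0.0183 and 0.00703), and Igfbp2 in both siC/EBPb groups (-0.63 and -0.46, edgeR QL adjusted p = 0.0188 and 0.0441). Same-numbered eWAT and iWAT libraries deviated together (r over 0.1) in every pair of Cont siNS and aKO siC/EBPb. They did so in 2 of 3 pairs of Cont siC/EBPb and in the pairs left in aKO siNS. The fit over 24 libraries leaves this out, and agreement between the depots is therefore not independent replication. With the replicate number as a block in the 6 libraries of a comparison, 4 and 5 of the 9 passed in Cont siNS and aKO siC/EBPb, against 13.2% and 13.4% of all genes. In Cont siNS, with the block, Igf1 was higher in iWAT (0.23, edgeR QL adjusted p = 0.00464), and Igfbp7 (-0.23, edgeR QL adjusted p = 0.00192), Igfbp3 (-0.22, edgeR QL adjusted p = 0.00283) and Igf2r (-0.21, edgeR QL adjusted p = 0.00460) were lower. With the block in aKO siC/EBPb, the comparison was passed by Igf1 at 0.33 (edgeR QL adjusted p = 0.00154), Igfbp7 at -0.27 (edgeR QL adjusted p = 0.00192), Igf2r at -0.24 (edgeR QL adjusted p = 0.00506), Igfbp3 at -0.19 (edgeR QL adjusted p = 0.0469) and Igfbp2 at -0.45 (edgeR QL adjusted p = 0.00353). With the block in Cont siC/EBPb, Igf1 was higher in iWAT (0.38, edgeR QL adjusted p = 1.02e-15). Lower there were Igfbp7 (-0.30, edgeR QL adjusted p = 1.65e-10), Igfbp3 (-0.26, edgeR QL adjusted p = 3.86e-08), Igfbp2 (-0.62, edgeR QL adjusted p = 3.21e-06), Igf2r (-0.21, edgeR QL adjusted p = 1.38e-05) and Igfbp6 (-0.18, edgeR QL adjusted p = 3.07e-04). The closing section gives the count over all genes. Over 24 libraries, the depot differences of the 9 genes lay between -0.63 (Igfbp2, Cont siC/EBPb) and 0.37 (Igf1, Cont siC/EBPb).

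Proteases that cleave IGF binding proteins, and inhibitors of these proteases, formed a list of 12 genes of which 10 were tested. Pappa encodes the protease PAPP-A, which cleaves IGFBP4 and IGFBP5. Its eWAT values were 159, 173 and 184 CPM in Cont siNS, 221, 258 and 226 in Cont siC/EBPb, 114, 115 and 119 in aKO siNS and 407, 306 and 296 in aKO siC/EBPb. Pappa thus went the other way from Igfbp4 with siC/EBPb and was highest where Igfbp4 was lowest. It rose with siC/EBPb by 0.45 ± 0.11 in eWAT Cont (edgeR QL adjusted p = 0.00252), 1.54 ± 0.11 in eWAT aKO (edgeR QL adjusted p = 2.19e-11), 0.55 ± 0.11 in iWAT Cont (edgeR QL adjusted p = 4.26e-04) and 1.5 ± 0.12 in iWAT aKO (edgeR QL adjusted p = 2.14e-10). In aKO against Cont, Pappa fell by 0.57 ± 0.11 in eWAT (edgeR QL adjusted p = 4.30e-04) and 0.48 ± 0.12 in iWAT (edgeR QL adjusted p = 0.00670) with siNS, and rose by 0.52 ± 0.11 (edgeR QL adjusted p = 0.00181) and 0.48 ± 0.11 (edgeR QL adjusted p = 0.00378) with siC/EBPb.

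The stanniocalcins Stc1 and Stc2 inhibit PAPP-A. Stc2 was at 16.1, 15.5 and 12.2 CPM in eWAT Cont siNS and 11.1, 11.4 and 8.49 in aKO siNS, and fell in aKO by 0.51 ± 0.11 (edgeR QL adjusted p = 0.00163) in eWAT and 0.73 ± 0.14 (edgeR QL adjusted p = 4.18e-04) in iWAT. The iWAT value includes the shallow library, which had 4 counts of Stc2. Stc1 fell with siC/EBPb in each depot and genotype, with -1.74 ± 0.21 in eWAT Cont (edgeR QL adjusted p = 3.54e-07) and -2.69 ± 0.23 in eWAT aKO (edgeR QL adjusted p = 5.46e-10), from low levels of 3.42, 4.75 and 4.06 CPM in eWAT Cont siNS. Igfals, whose protein holds IGF and IGFBP3 in a larger complex in serum, rose in aKO with siNS by 1.91 ± 0.32 in eWAT (edgeR QL adjusted p = 8.86e-05), from 1.30, 1.36 and 0.570 CPM to 3.39, 3.52 and 5.31 CPM. Across the list, aKO with siNS had 3 higher and 2 lower in eWAT and 4 higher and 2 lower in iWAT, and aKO with siC/EBPb had 2 higher and 2 lower in each depot. With the siRNA 1 rose and 3 fell in Cont cells of each depot, and 1 or 2 rose and 5 fell in aKO cells of eWAT and iWAT, with list medians from -0.22 to 0.02 in the siRNA comparisons against -0.01 to 0.02 over all tested genes.

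**Figure D4:**
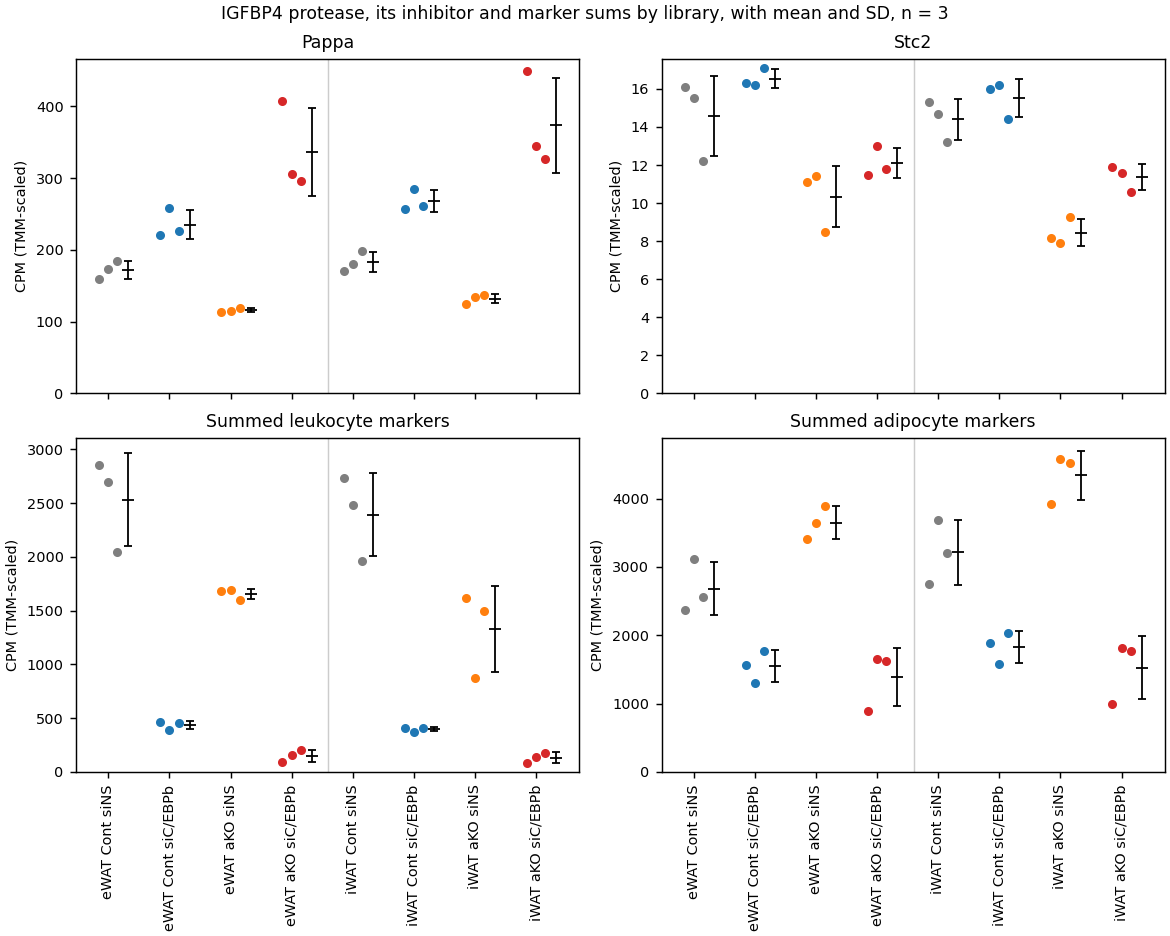
CPM in each library (points) with group means and SD (n = 3) for Pappa and Stc2, and summed CPM of the marker lists, in the 8 groups. Pappa is highest in the aKO siC/EBPb groups, at 296 to 407 CPM in eWAT, and the leukocyte sum falls from a median of 2702 in eWAT Cont siNS to 153 in eWAT aKO siC/EBPb.

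Downstream of the receptors, 27 of 29 listed genes of insulin and IGF1 receptor signalling were tested. With siNS, aKO had 7 higher and 1 lower in eWAT and 7 higher and 2 lower in iWAT, and with siC/EBPb 2 rose and 0 fell in each depot, where 20.4%, 15.2%, 10.8% and 10.0% of all tested genes were called. The siRNA raised 5 and lowered 5 in eWAT Cont, 8 and 7 in eWAT aKO, 6 and 5 in iWAT Cont and 6 and 8 in iWAT aKO, where 26.8%, 35.7%, 24.3% and 31.3% of all tested genes were called. The counts of the other gene lists stand beside these same shares. Irs1, the docking protein of the activated receptors, rose with siC/EBPb by 0.74 ± 0.076 in eWAT Cont (edgeR QL adjusted p = 1.78e-08), from 67.0, 65.1 and 70.1 CPM to 114, 112 and 112 CPM, by 0.55 ± 0.075 in eWAT aKO (edgeR QL adjusted p = 9.58e-07), 0.80 ± 0.078 in iWAT Cont (edgeR QL adjusted p = 9.82e-09) and 0.49 ± 0.083 in iWAT aKO (edgeR QL adjusted p = 3.18e-05). Pik3r3, a regulatory subunit of PI3 kinase, rose in all 8 genotype and siRNA comparisons, by 0.47 to 0.80. Pik3r1, another such subunit, rose in aKO with siNS by 0.54 ± 0.12 (edgeR QL adjusted p = 0.00174) in eWAT and 0.65 ± 0.13 (edgeR QL adjusted p = 9.04e-04) in iWAT and fell with siC/EBPb in aKO cells by 0.57 ± 0.12 (edgeR QL adjusted p = 5.01e-04) and 0.61 ± 0.13 (edgeR QL adjusted p = 5.42e-04). Medians of the list lay between -0.00 and 0.09 in these 8 comparisons. In iWAT aKO siNS, Pik3r1 was at 219, 346 and 217 CPM, with 346 in the shallow library.

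Growth hormone drives Igf1 in many tissues through GHR, JAK2 and STAT5, and all 9 listed genes of that axis were tested. Ghr, its receptor, was at 120.2, 163 and 137 CPM in eWAT Cont siNS and rose in aKO with siNS by 0.70 ± 0.18 in eWAT (edgeR QL adjusted p = 0.00760) and 0.63 ± 0.19 in iWAT (edgeR QL adjusted p = 0.0277), where Igf1 fell. With siC/EBPb it fell in aKO cells by 1.15 ± 0.18 (edgeR QL adjusted p = 4.05e-05) and 0.99 ± 0.19 (edgeR QL adjusted p = 3.99e-04). In iWAT aKO siNS, Ghr was at 229.6, 134 and 271 CPM, with 134 in the shallow library. Socs3, an inhibitor of cytokine receptors, fell with siC/EBPb by 1.13 to 1.23 in each depot and genotype, from 128, 154 and 150.2 CPM to 65.7, 59.9 and 63.1 CPM in eWAT Cont. In the list 2 rose and 1 fell in aKO with siNS in each depot, 0 rose and 2 fell with siC/EBPb, and with the siRNA 0 rose and 4, 6, 3 and 6 fell in eWAT Cont, eWAT aKO, iWAT Cont and iWAT aKO.

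Other secreted proteins with an IGFBP-like domain were listed as well (13 genes, 9 tested), Igfbp1 among them with 0 counts in the 24 libraries. The matricellular genes Ccn2 and Ccn4 rose with siC/EBPb in each depot and genotype, Ccn2 by 0.62 ± 0.13 in eWAT Cont (edgeR QL adjusted p = 7.11e-04) and 1.85 ± 0.14 in eWAT aKO (edgeR QL adjusted p = 2.99e-11), and Ccn4 by 0.99 ± 0.10 (edgeR QL adjusted p = 1.33e-08) and 1.67 ± 0.10 (edgeR QL adjusted p = 5.80e-13). Ccn3 rose with siC/EBPb by 1.57 ± 0.12 in eWAT Cont (edgeR QL adjusted p = 4.93e-10), and its eWAT genotype difference was -0.79 ± 0.13 with siNS (edgeR QL adjusted p = 5.49e-05) and -1.30 ± 0.12 with siC/EBPb (edgeR QL adjusted p = 5.56e-08). The list had 2 higher and 4 lower in aKO with siNS in eWAT, 2 and 3 in iWAT, 3 and 3 with siC/EBPb in eWAT and 3 and 4 in iWAT. With the siRNA it had 4 higher and 2 lower in Cont and 5 and 3 in aKO cells of each depot.

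Of 15 genes of the Igf2 locus and other imprinted growth genes, 13 were tested. H19, the maternally expressed neighbour of Igf2, was at 115, 121 and 86.2 CPM in eWAT Cont siNS. Igf2 had 1, 0 and 2 counts there, which may be too low because of its shared exon bases. It rose with siC/EBPb in Cont cells by 0.56 ± 0.17 in eWAT (edgeR QL adjusted p = 0.0201) and 0.53 ± 0.17 in iWAT (edgeR QL adjusted p = 0.0320), and not past the threshold in aKO cells. Dlk1, a marker of preadipocytes, rose with siC/EBPb by 1.43 ± 0.13 in eWAT Cont (edgeR QL adjusted p = 4.05e-09). Cdkn1c, an inhibitor of cell division, fell with siC/EBPb in eWAT aKO by 1.30 ± 0.14 (edgeR QL adjusted p = 2.28e-08) and rose in eWAT Cont by 0.37 ± 0.13 (edgeR QL adjusted p = 0.0423). In aKO with siNS 3 rose and 3 fell in eWAT and 1 and 2 in iWAT, and with siC/EBPb 0 rose and 2 fell in each depot. The siRNA raised 6 and lowered 1 in eWAT Cont, 3 and 1 in eWAT aKO, 5 and 1 in iWAT Cont and 3 and 2 in iWAT aKO.

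Adipocyte markers (15 of 15 tested) rose in aKO with siNS for 6 in eWAT and 3 in iWAT, and fell with siC/EBPb for 6 in Cont and 12 in aKO cells of each depot, and 0 differed between genotypes with siC/EBPb in edgeR QL (0 in eWAT and 2 in iWAT at an unadjusted p under 0.05). Their summed medians in eWAT were 2554 CPM in Cont siNS, 1568 in Cont siC/EBPb, 3639 in aKO siNS and 1621 in aKO siC/EBPb, and in iWAT 3198, 1888, 4519 and 1771. The fibroblast and progenitor list had 4 higher and 1 lower in aKO with siNS and 1 higher and 5 lower with siC/EBPb in each depot. With the siRNA 3 rose and 5 fell in eWAT Cont, 2 and 8 in eWAT aKO, 3 and 6 in iWAT Cont and 1 and 9 in iWAT aKO. Smooth muscle and pericyte markers (11 tested) summed to 754 to 2079 CPM with siNS and 3066 to 4874 with siC/EBPb. The 754 was in iWAT aKO siNS, the group of the shallow library, where the median was 1398. In the siRNA comparisons 5 to 6 of these markers rose and 1 fell, and between genotypes 1 or 2 rose and 1 to 4 fell. Igfbp5 and Igfbp2 rose with the siRNA, where the sum of these markers was higher. Igfbp5 also rose in aKO with siNS, where the median of the sum was 1348 against 1639 CPM in eWAT. The part of these cells in the result was not tested.

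Mesothelial markers (11 listed, 6 tested) were low, at 25.9 to 34.2 CPM summed in Cont and 3.96 to 8.60 in aKO. The 3.96 was in iWAT aKO siNS, the group of the shallow library, where the median was 7.15. Of the 6, 3 and 3 fell in aKO with siNS in eWAT and iWAT, and 5 and 4 with siC/EBPb, and the siRNA raised 3 and lowered 1 or 2 in Cont cells and changed 0 in aKO cells in edgeR QL (0 in eWAT and 1 in iWAT at an unadjusted p under 0.05). Endothelial markers (11 listed, 10 tested) summed to 37.0 to 65.3 CPM, the 65.3 also in iWAT aKO siNS, where the median was 40.4. In aKO with siNS 1 rose in each depot, and 6 fell in eWAT and 5 in iWAT. In aKO with siC/EBPb 0 rose, and 5 fell in eWAT and 8 in iWAT. With the siRNA 1 to 2 rose and 1 to 2 fell. None of the 5 hepatocyte markers was tested, and none had more than 5 counts in a library.

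The genes whose log2 CPM went most closely with each IGF gene over the 24 libraries were picked by Pearson's r as a description, since the libraries share 8 group means. Igfbp3 went most closely with Saa3 (r = 0.987), which encodes a serum amyloid protein, and with Wnt4 (0.964). Igfbp4 went with Fam110c (0.988), Slc11a1 (0.987), a metal transporter of macrophages, and Nfil3 (0.985). Igf1 went with Mmd (0.952), Pde5a (0.942) and Plp2 (0.939), Igfbp5 with Zfp521 (0.960), Slit2 (0.945) and Col8a2 (0.944), and Igfbp6 with Bckdha (0.907), Fcgrt (0.905) and Ramp2 (0.900). Igfbp7 went with Plod3 (0.917), Gnpda1 (0.910) and Serpine2 (0.908). The highest r of Igf1r was with Carmn (0.928, and 0.796 over the 23 libraries without the shallow one). That of Igf2r was with Tecpr2 (0.949, and 0.920 over 23 libraries), and that of Igfbp2 with Anxa2 (0.958, and 0.900). Among the IGF genes, Igf1 and Igfbp3 went together, with r = 0.99 over the 12 eWAT and 0.96 over the 11 iWAT libraries without the shallow one. Igfbp2 and Igfbp3 went opposite ways, at -0.83 and -0.95.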

How the data were processed

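Poly(A) RNA of 24 samples was sequenced from libraries made with a directional kit, per the labels' protocols. Base calls were made with CASAVA, reads were trimmed with cutadapt 2.7 and aligned to GRCm38 with TopHat2 2.1.1, genes were counted with HTSeq, and edgeR was used, per the submitters' processing notes. The sources used here do not state the strand setting of HTSeq. The deposited table held the raw count of reads per gene for 53465 genes and 5 counter lines, which held 27.5% to 39.5% of listed reads in 23 libraries and 95.9% in the shallow library (iWAT aKO siNS replicate 2). These lines entered neither library sizes nor tests. Separate files deposited for each sample repeat these counts, divided by 1 constant per library (largest difference 0.0000725 counts), and were left aside. GENCODE M21 gave symbols and positions for 53274 identifiers and none for 191.

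Groups were formed from depot, genotype and siRNA in the labels. With edgeR 4.0.16 (R 4.3.3), low genes were removed by filterByExpr (minimum count 10, 8 groups), libraries were scaled by TMM (0.985 to 1.04, and 0.840 in the shallow library), and 1 mean per group without a block was fitted to 24 libraries (glmQLFit, robust). Contrasts were tested by the quasi-likelihood F test, with Benjamini-Hochberg adjustment over the 14785 genes of each and a threshold of 0.05. CPM use the scaled library sizes, and levels per kilobase divide them by the union of annotated exons. Shares are of transcripts counted. Low counts limit Igf2, and depth limits Igfbp2 in the shallow library. The IGF genes and the gene lists were chosen with earlier results of these data known.

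Named genes are the IGF genes, Cebpb and Senp2, members of the fixed lists that were among the 4 with the smallest p of a contrast or the 4 most expressed, and the 3 genes most alike each IGF gene in log2 CPM (prior count 2, mean of at least 1, no predicted genes). One gene that this rule allows is not reported here. Pairing of replicate numbers was checked by correlating deviations from group means over the 8159 genes whose counts averaged 200 or more. Same-numbered eWAT and iWAT libraries had r from 0.270 to 0.425 in Cont siNS and from 0.424 to 0.748 in aKO siC/EBPb, over 0.1 in 3 of 3 pairs, so these were taken as pairs from the data, the numbers being unexplained in the labels. In Cont siC/EBPb r was over 0.1 in 2 of 3 pairs (0.0796 to 0.235), in aKO siNS the shallow library left 2 pairs (0.251 and 0.256), and no genotype or siRNA comparison met the rule.

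On simulated counts of 14513 genes the fit recovered 51 of 66, 51 of 64 and 61 of 65 genes changed 1.5-fold, 2-fold and 4-fold in the eWAT Cont siRNA contrast, with 8 false calls of 171, and 36, 42 and 60 of as many in the eWAT interaction, with 11 of 149. A contrast without change gave 0 calls. The simulated counts were drawn from edgeR's own model, with independent libraries and few changed genes. They check the code and not how well that model holds for these data. As alternatives, results were recomputed with DESeq2 size factors, no filter, a minimum CPM of 1 in 12 libraries, Wald tests of DESeq2 1.42.0, limma 3.58.1 voom with sample weights, fits of a contrast's own groups, an additive replicate block, and omission of each library in turn. A block within the 6 libraries of a depot contrast was added after seeing the data. RefSeq promoter windows (GRCm38.p6) were matched by symbol. Protein sequences were not used here.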

Additional observations from a re-analysis of the deposited data

Results flagged for a closer look

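Results are listed here because the change with siC/EBPb differed between aKO and Cont cells of a depot by the interaction test of edgeR QL. Values are the log2 change in aKO minus that in Cont, ± SE, with edgeR QL adjusted p. With siC/EBPb, mean Cebpb was 27.4 CPM in aKO against 50.4 in Cont in eWAT, and 18.5 against 36.0 in iWAT. The part of this difference in the results was not tested.

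Among the IGF genes, eWAT gave -1.15 ± 0.27 for Igfbp3 (edgeR QL adjusted p = 0.0138), -1.17 ± 0.21 for Igfbp4 (edgeR QL adjusted p = 0.00107), -1.10 ± 0.21 for Igfbp5 (edgeR QL adjusted p = 0.00219) and -0.76 ± 0.16 for Igfbp6 (edgeR QL adjusted p = 0.00425). The iWAT values were -1.02 ± 0.28 for Igfbp3 (edgeR QL adjusted p = 0.0477), -1.01 ± 0.21 for Igfbp4 (edgeR QL adjusted p = 0.00572) and -1.25 ± 0.21 for Igfbp5 (edgeR QL adjusted p = 0.00121). Each of these interactions was negative. Igfbp4 reached 156 to 250.2 CPM in eWAT aKO siC/EBPb, and the leukocyte marker sum was also the lowest of the 4 eWAT groups there, at 95.1 to 203 CPM, and its part in the result was not tested.

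Pappa, the protease of IGFBP4, went the other way, with 1.09 ± 0.16 in eWAT (edgeR QL adjusted p = 8.64e-05) and 0.95 ± 0.16 in iWAT (edgeR QL adjusted p = 0.000732). Ccn2 did too, with 1.23 ± 0.19 in eWAT (edgeR QL adjusted p = 0.000173) and 1.38 ± 0.19 in iWAT (edgeR QL adjusted p = 7.64e-05), as did Ccn4, with 0.68 ± 0.14 in eWAT (edgeR QL adjusted p = 0.00329) and 0.66 ± 0.15 in iWAT (edgeR QL adjusted p = 0.00877).

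Genes of the growth hormone axis and the serum complex with negative values were Igfals in eWAT (-1.90 ± 0.53, edgeR QL adjusted p = 0.0292) and Prlr, the prolactin receptor, in iWAT (-1.42 ± 0.35, edgeR QL adjusted p = 0.0201). Imprinted growth genes were Cdkn1c in eWAT (-1.67 ± 0.20, edgeR QL adjusted p = 4.2e-06) and iWAT (-0.96 ± 0.21, edgeR QL adjusted p = 0.00727), Plagl1 in eWAT (-0.89 ± 0.20, edgeR QL adjusted p = 0.00823) and iWAT (-1.0 ± 0.21, edgeR QL adjusted p = 0.00881) and Dlk1 in eWAT (-0.67 ± 0.19, edgeR QL adjusted p = 0.0335). All iWAT values listed here include the shallow library. In it Cdkn1c was at 1.98 CPM (1 count), Prlr at 5.93 CPM (3 counts) and Plagl1 at 29.7 CPM (15 counts). Values of these list genes without that library are not given here.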

How the results depend on the processing

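Of 46 called results of single IGF genes, 35 passed in every alternative run, and 630 of their 672 recomputed values stayed past the threshold. Of all 2043 recomputed values of IGF genes, 0 changed direction where the main or the alternative run had a call. Where neither had a call, 44 changed direction. The libraries behind lost calls are named with each gene, and the cause of each was not tested. With the groups of a contrast alone, which leaves 6 or 12 libraries in the fit, 2 IGF genes changed in place of 4 between genotypes in iWAT with siNS, and 3 in place of 7 with the siRNA in iWAT aKO. The iWAT interaction had 5 in place of 3 with voom. The depot comparisons moved most, from 0 IGF genes in each. In Cont siNS they had 2 with voom, 3 with the groups alone and 4 with the replicate block in the 6 libraries. In Cont siC/EBPb they had 2 with no filter, 1 with the DESeq2 Wald test, 5 with voom, 6 with the groups alone and 6 with that block. In aKO siNS they had 1 with voom, and in aKO siC/EBPb 2 with no filter, 2 with voom and 5 with the block. The cause was not tested.

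With 1 library left out at a time, the number of changed IGF genes ran from 4 to 6 (eWAT siNS), 4 to 4 (eWAT siC/EBPb), 3 to 6 (iWAT siNS) and 4 to 4 (iWAT siC/EBPb) between genotypes, and for the siRNA from 3 to 4 (eWAT Cont), 6 to 8 (eWAT aKO), 3 to 5 (iWAT Cont) and 5 to 9 (iWAT aKO). Between depots it ran from 0 to 2 (Cont siNS), 0 to 3 (Cont siC/EBPb), 0 to 1 (aKO siNS) and 0 to 3 (aKO siC/EBPb), and in the interactions from 4 to 5 (eWAT), 2 to 3 (iWAT) and 0 to 0 (genotype by depot). Without iWAT aKO siNS replicate 2 the depot counts were 2, 3, 1 and 3, and without iWAT aKO siNS replicate 3 that of aKO siNS was 1.

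The additive replicate block over 24 libraries changed none of the 15 counts of IGF genes (5, 4, 4 and 4 between genotypes, 4, 7, 4 and 7 for the siRNA, 0 in each depot comparison, 4, 3 and 0 in the interactions). Counts over all genes moved more than 1.5 times as follows. Between genotypes in iWAT, 2243 became 718 with the groups alone and 1436 without iWAT aKO siNS replicate 3 (siNS), and 1483 became 2568 with voom and 942 without iWAT aKO siC/EBPb replicate 1 (siC/EBPb). For the siRNA, 3958 became 5938 with voom in eWAT Cont, and 4624 became 2231 with the groups alone in iWAT aKO. The eWAT interaction had 938, 2059 with voom, 1447 with the groups alone and 434 to 1677 with a library left out, and the iWAT interaction 519, with 921 (no filter), 1235 (voom), 303 (groups alone) and 291 to 939. Between depots, Cont siNS had 178, with 542 (no filter), 852 (voom), 710 (groups alone), 1953 (block in 6 libraries) and 23 to 1123 with a library left out. Cont siC/EBPb had 496, with 3635 (voom), 3068 (groups alone), 3618 (block) and 60 to 1713. In aKO siNS 52 became 138 (no filter), 88 (DESeq2), 1091 (voom), 0 (groups alone), 0 (block) and 0 to 822, and in aKO siC/EBPb 213 became 521 (no filter), 647 (voom), 1982 (block) and 16 to 1478. Genotype by depot had 0, and 18 with no filter. Low counts limit Igf2 throughout, the cause of which was not tested, and depth limits every gene in the shallow library.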
